A study of Mus musculus with 8 samples.

Results

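Histone H3 acetylated at lysine 27 (H3K27ac) was mapped in pachytene spermatocytes (PS), which are male germ cells in meiotic prophase, and in round spermatids (RS), the haploid cells that follow meiosis. The regions described here are the H3K27ac regions of chromosomes 1 to 19 that lie upstream of a gene, outside its promoter. In each stage the called intervals of the 2 replicates were merged, merged regions with an interval from both replicates were kept, and a region took the class that the deposited list gave to its interval with the highest fold enrichment. Fold enrichment is the height of the read pileup over the expected background, as the peak caller wrote it. The class upstream held 2705 of 26333 PS regions (10.3%) and 2653 of 26489 RS regions (10.0%). With overlapping PS and RS regions joined, these made 3958 of the 33842 autosomal loci. Of the 3958 loci, 1421 (35.9%) had a region in both stages and are called kept, 1060 (26.8%) had one in PS only and are called lost, and 1477 (37.3%) had one in RS only and are called gained. Over all autosomal loci, 45.7% were kept, 23.5% were lost and 30.8% were gained.

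H3K27ac came from wild type adult C57BL/6 testis, with 2 PS and 2 RS samples. RNA came from PS and RS of adult mice on the same background in which Rnf8 and Scml2 were both knocked out (dKO), again with 2 samples per stage. Both kinds of cell were separated by size through gravity sedimentation in bovine serum albumin, and the dKO cells came from single mice on a small scale, with the RNA amplified before library construction. RNF8 is a ubiquitin ligase of the DNA damage response, and SCML2 is a germline Polycomb protein encoded on the X chromosome. The mark and the RNA were therefore measured in mice of different genotypes, and no wild type RNA was analysed here. The study describes the replicates as biological, while the labels do not say which mouse gave each sample, and each p-value measures the spread between these samples.

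H3K27ac is placed by acetyltransferases such as p300 and CBP and marks active promoters and active enhancers, the distal elements that raise transcription of a gene from a distance. In late meiosis and in spermatids, germ cells turn on large sets of genes for the acrosome, the tail and the packaging of the sperm nucleus, under transcription factors that include MYBL1 in spermatocytes and CREM and the RFX family in and after meiosis. An upstream region need not act on the gene it is named after, since the name comes from its position.

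Windows of 300 bases are shown for 8 regions, chosen for the patterns on which the results turn. They are the kept regions with the highest fold enrichment, and the kept loci with the largest rise and the largest fall in strength. The others are the strongest lost and gained regions with no interval in either replicate of the other stage. Each window is centred on the summit of the strongest interval, taken in RS for gained regions and in PS for all others. At 1700011B04Rik, which was stronger in RS, the window is therefore that of the weaker PS interval. The sequences were read from GRCm38 (mm10) on the plus strand, 5′ to 3′. Capitals mark matches on either strand to any of 7 letter strings searched in all windows. These were GGCNGTT (MYB), GGGCGG (GC box), TGANTCA (AP-1), GTTGCCAT (RFX), TGACGTCA (cAMP response element), CACGTG (E-box) and GCGCATGCG (NRF1), and none of the strings lies within another.
H1fx (kept), chr6:87993836-87994135: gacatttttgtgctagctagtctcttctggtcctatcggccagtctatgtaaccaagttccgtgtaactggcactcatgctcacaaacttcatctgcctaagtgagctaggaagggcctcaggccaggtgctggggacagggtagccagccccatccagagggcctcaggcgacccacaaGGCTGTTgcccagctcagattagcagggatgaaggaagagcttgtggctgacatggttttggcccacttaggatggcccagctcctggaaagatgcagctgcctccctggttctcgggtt
Aym1 (kept), chr5:113339698-113339997: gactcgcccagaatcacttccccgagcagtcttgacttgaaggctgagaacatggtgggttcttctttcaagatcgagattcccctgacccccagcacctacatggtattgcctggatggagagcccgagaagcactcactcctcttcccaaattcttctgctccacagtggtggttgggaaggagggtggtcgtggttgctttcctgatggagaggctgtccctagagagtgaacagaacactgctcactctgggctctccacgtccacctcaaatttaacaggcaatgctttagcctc
Tmem117 (lost), chr15:94615647-94615946: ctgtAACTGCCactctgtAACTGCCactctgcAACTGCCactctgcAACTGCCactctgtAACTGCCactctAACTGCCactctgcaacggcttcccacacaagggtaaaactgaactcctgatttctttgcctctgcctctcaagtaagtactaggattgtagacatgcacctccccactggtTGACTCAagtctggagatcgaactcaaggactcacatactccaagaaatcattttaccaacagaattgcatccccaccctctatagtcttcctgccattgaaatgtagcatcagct
Habp2 (lost), chr19:56266643-56266942: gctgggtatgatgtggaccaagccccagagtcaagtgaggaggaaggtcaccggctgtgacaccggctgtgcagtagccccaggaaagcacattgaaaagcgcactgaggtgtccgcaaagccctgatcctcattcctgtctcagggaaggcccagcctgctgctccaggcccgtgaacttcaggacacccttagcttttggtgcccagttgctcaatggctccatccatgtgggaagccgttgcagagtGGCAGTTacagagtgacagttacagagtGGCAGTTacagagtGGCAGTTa
Bcl6 (gained), chr16:23997928-23998227: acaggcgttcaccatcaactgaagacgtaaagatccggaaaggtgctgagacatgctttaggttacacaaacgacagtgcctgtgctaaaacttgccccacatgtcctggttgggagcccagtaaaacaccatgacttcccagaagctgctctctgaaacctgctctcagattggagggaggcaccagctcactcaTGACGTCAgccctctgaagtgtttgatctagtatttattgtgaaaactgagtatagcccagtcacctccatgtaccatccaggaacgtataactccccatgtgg
Arhgef7 and Gm6524 (gained), chr8:11712918-11713217: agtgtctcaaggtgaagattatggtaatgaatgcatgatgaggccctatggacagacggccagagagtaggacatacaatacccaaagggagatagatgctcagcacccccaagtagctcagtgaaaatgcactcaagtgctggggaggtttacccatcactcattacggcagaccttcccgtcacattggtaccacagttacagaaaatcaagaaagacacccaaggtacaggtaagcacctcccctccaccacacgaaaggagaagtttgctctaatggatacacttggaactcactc
1700011B04Rik (stronger in RS), chr13:35167308-35167607: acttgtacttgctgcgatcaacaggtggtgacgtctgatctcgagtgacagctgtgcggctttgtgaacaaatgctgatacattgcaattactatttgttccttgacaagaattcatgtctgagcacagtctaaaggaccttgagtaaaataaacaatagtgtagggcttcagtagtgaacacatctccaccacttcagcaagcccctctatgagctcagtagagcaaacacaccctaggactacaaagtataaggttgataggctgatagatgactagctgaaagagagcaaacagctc
Phactr3 (weaker in RS), chr2:178109193-178109492: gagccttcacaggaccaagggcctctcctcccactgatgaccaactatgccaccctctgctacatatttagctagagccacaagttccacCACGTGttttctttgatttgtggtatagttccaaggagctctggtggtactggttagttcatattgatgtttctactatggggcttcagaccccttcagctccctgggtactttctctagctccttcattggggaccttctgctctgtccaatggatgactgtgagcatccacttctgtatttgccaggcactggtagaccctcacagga

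The Tmem117 window held a run of spaced MYB matches on the minus strand and an AP-1 match, 7 matches in all, and the Habp2 window held 3 MYB matches close to its end. The Bcl6 window held the cAMP response element, and the Phactr3 window held the E-box. The Aym1, Arhgef7 and 1700011B04Rik windows held none of the 7 strings. A match is a description of the letters, not a binding site or a cause.

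The 4 H3K27ac samples had between 38519 and 72928 autosomal intervals, of which 11.8% to 12.5% were upstream. RS replicate 1 stood apart with 72928 intervals against 44726 in RS replicate 2. The upstream share kept and the counts lost and gained were therefore also taken without it, at 60.04%, 1081 and 3379. RS then rested on replicate 2 alone, without the rule that both replicates hold an interval, and had 5442 upstream regions against 2653. The read depth of these samples is unknown. The RNA samples had 9655405 to 12289694 reads on genes. Reads of the targeted genes remained in the dKO samples: Rnf8 had 93 and 110 reads in PS and 61 and 50 in RS, and Scml2 had 40 and 92 reads in PS and 44 and 98 in RS. With no wild type RNA beside them and with the deleted parts not located here, these reads do not check the labels. All 12 round spermatid markers were higher in RS, with a summed RPKM (reads per kilobase, corrected for library size) of 613 and 1004 in PS and 15800 and 16603 in RS, and 6 of 11 pachytene markers were lower. Markers of other testis cells moved as well: all 5 Leydig cell markers were lower in RS (summed RPKM 727 and 546 in PS, 68.0 and 42.4 in RS) and all 4 macrophage markers were higher (3.53 and 2.56 in PS, 51.1 and 43.9 in RS). Of 8 Sertoli markers 2 were called higher in RS, while their sum was 66.3 and 31.5 in PS and 36.8 and 21.2 in RS. Of 8 spermatogonial markers 3 were higher, with sums of 41.8 and 28.0 against 54.1 and 50.8, and the peritubular markers summed to 4.94 and 4.57 against 4.05 and 4.19. In each of these lists no marker was at 0 in all 4 samples. In bulk samples, fewer cells of a type and less RNA per cell cannot be told apart.

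The first comparison asks how many upstream regions of spermatocytes remain in spermatids. Of the 2705 PS upstream regions, 1645 (60.8%, 95% Wilson interval 59.0 to 62.6) overlapped an RS region by at least 1 base. Where each region had to cover at least 50% of the other, the share was 21.6% and 2120 regions were lost. At 1 base the share was 86.3% for promoters, 64.5% for exons, 56.1% for introns and 53.0% for intergenic regions. These intervals cover counting error only, regions of a sample are not replicates, and an exact permutation test of 2 samples against 2 cannot go below p = 0.333, so the shares carry no test. In single replicate pairs, 72.4% of upstream intervals of PS replicate 1 overlapped an interval of RS replicate 1, against 48.4% for the second pair. In the same pairs the promoter shares were 90.9% and 76.3%. The replicate pairs thus differed from each other by more than upstream regions differed from exon, intron or intergenic regions. With equal numbers of intervals taken from each sample, the upstream share was 57.3%.

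The 1060 lost regions were not all without signal in RS. Of them, 635 (59.9%, 56.9 to 62.8) had no interval in either RS replicate, and 417 had an interval in a single replicate, which was RS replicate 1 in 405 cases. For 8 lost regions both RS replicates had an interval but the intervals did not form a shared region over them. Among the 1477 gained regions, 1043 (70.6%, 68.2 to 72.9) had no interval in either PS replicate, 153 had one in PS replicate 1 only, 224 had one in PS replicate 2 only, and 57 had one in both.

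From the side of RS, 1176 of 2653 upstream regions (44.3%, 42.4 to 46.2) were shared with PS and 55.7% (53.8 to 57.6) were gained. The shared part was 93.3% for RS promoters, 47.5% for exons, 42.8% for intergenic regions and 30.2% for introns. The pair of first replicates shared 25.2% of RS upstream intervals and the pair of second replicates 45.7%. The pair with the larger share of RS upstream intervals was the reverse of that for PS, beside the larger number of intervals in RS replicate 1.

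Sharing of upstream regions rose with their strength in both stages, over a wider range in RS, as the plot of shared regions by fold enrichment shows beside the other classes. In PS, 52.5% of the 867 upstream regions with a mean fold enrichment under 5 were kept, 59.8% of those from 5 to 8, 64.8% of those from 8 to 12, and 76.6% (72.3 to 80.3) of those at 12 or more. At 12 or more, 98.7% of promoters, 66.7% of intron regions and 61.1% of intergenic regions were kept. In RS, 23.5% of upstream regions under 5, 30.9% of those from 5 to 8, 69.6% of those from 8 to 12 and 98.1% of those at 12 or more (369 of 376) were shared with PS. Strong upstream regions that overlapped no region of the other stage were therefore found in PS, where 101 lost regions reached 12, and seldom in RS, where 7 gained regions did. Of regions with no interval in either replicate of the other stage, 42 lost regions and 1 gained region reached 12. The 7 gained regions were 0.474% of all gained, and the 101 lost regions were 9.53% of all lost.

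**Figure D1:**
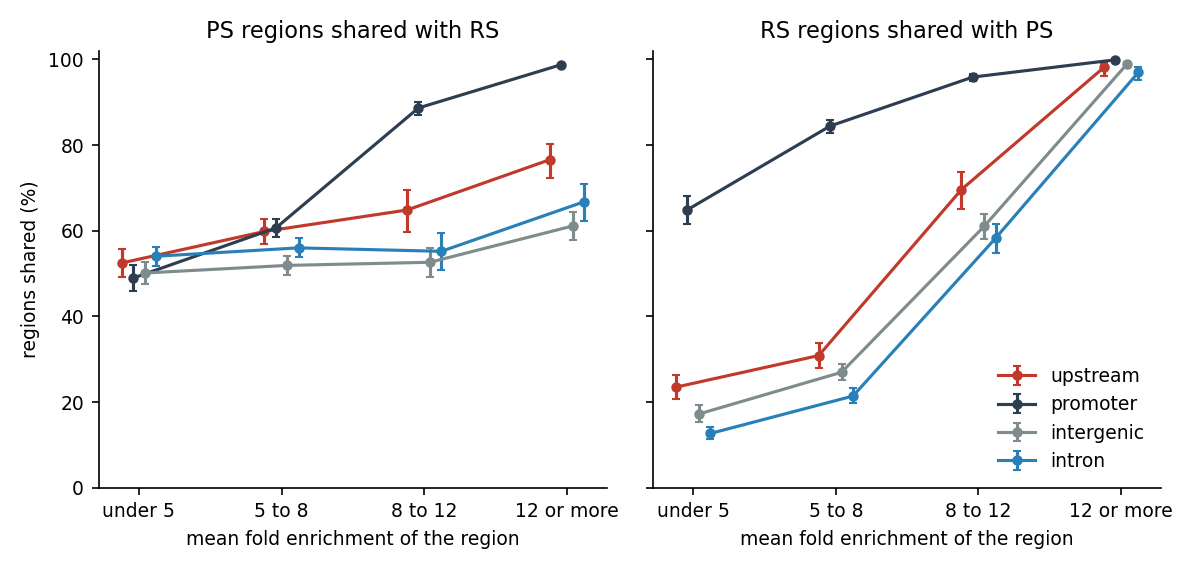
Percent of autosomal H3K27ac regions that overlap a region of the other stage (vertical axis) in 4 bins of mean fold enrichment (horizontal axis), for PS regions on the left and RS regions on the right, with points for each region class and bars for 95% Wilson intervals. Upstream regions rise from 52.5% to 76.6% in PS and from 23.5% to 98.1% in RS, where the classes come together in the highest bin.

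The fold enrichments of the groups overlapped in every sample. Lost regions had a median of 5.35 and 5.48 in PS replicates 1 and 2, and PS regions that were kept had 6.17 and 6.58. Gained regions had 5.29 and 5.22 in RS replicates 1 and 2, and RS regions that were shared had 10.17 and 7.55. The highest gained region in each RS sample reached 15.9 and 15.1, whereas the highest lost region in each PS sample reached 46.1 and 51.0. Lost regions were narrower (median 594 bp) than kept PS regions (831 bp), and gained regions (738 bp) were narrower than shared RS regions (1722 bp). These medians describe the regions and were not tested.

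**Figure D2:**
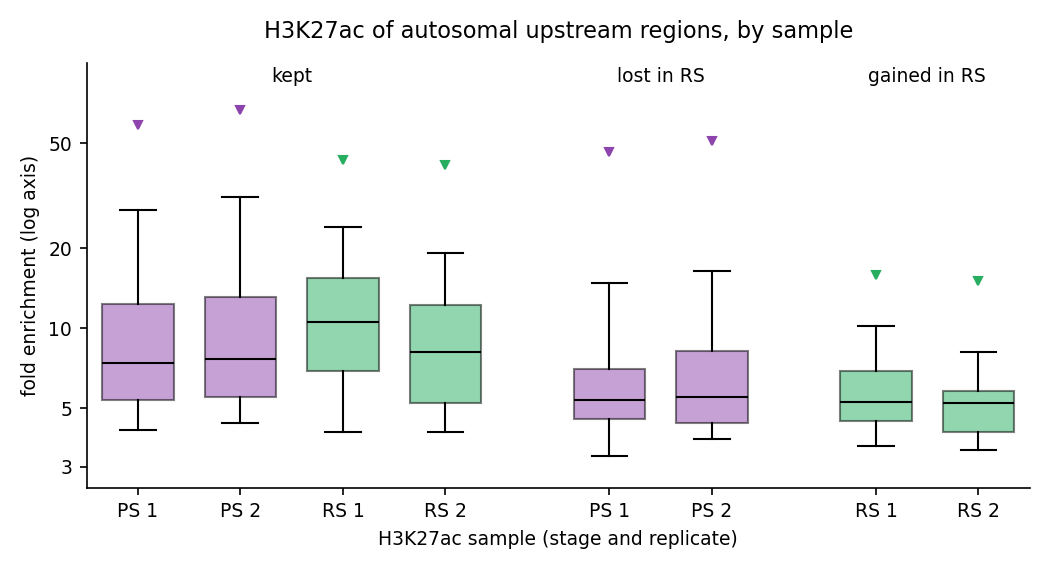
Fold enrichment (log axis) of upstream regions in each H3K27ac sample, for the 1059 loci upstream in both stages, for lost and for gained regions; boxes span the quartiles with the median as a line, whiskers the 5th to 95th percentile, and triangles give the highest region. Kept loci have medians of 7.41 and 7.67 in PS and 10.6 and 8.13 in RS, and the highest gained regions stay at 15.9 and 15.1 while the highest lost regions reach 46.1 and 51.0.

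The kept loci with the highest fold enrichment over both stages are given next, each with the gene named by the deposited list. The region named after H1fx, which encodes a linker histone, spanned chr6:87986143-87997069, and its interval lay 12504 bp upstream. Its fold enrichment was 49.4 and 58.1 in PS and 35.4 and 29.6 in RS. Both RS values were below both PS values. The region of Aym1, at chr5:113333298-113343678, had the highest fold enrichment of any upstream region in PS, with 58.4 and 66.9, and 17.9 and 13.4 in RS. A region at chr13:48543963-48548084 was named after the microRNA genes Mirlet7a-1, Mirlet7d and Mirlet7f-1, which belong to the let-7 family. It had 35.8 and 29.6 in PS and 43.1 and 41.2 in RS, so that its RS values were above its PS values. Its PS summit lay 284 bp from the start of the lincRNA 6720427I07Rik in GENCODE, and the window at that summit held 35 CpG. The 3 let-7 genes had no reads in the RNA files, where mature microRNAs are not measured.

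The other 5 of these 8 loci kept strong signal in both stages, with the largest fall at Kmt2b. The region between Kmt2b, a histone H3 lysine 4 methyltransferase gene, and Zbtb32 (chr7:30593826-30601114) fell from 41.2 and 51.5 in PS to 15.9 and 16.3 in RS. Its summit was 165 bp from a GENCODE start of Zbtb32. The region of Pxn and Sirt4 (chr5:115488115-115492564), genes of the adhesion protein paxillin and of a mitochondrial sirtuin, had 32.1 and 34.5 in PS and 29.3 and 29.6 in RS, and the difference did not pass the test. The region of Gimap4 and Gimap9 (chr6:48662002-48669994) had 34.6 and 44.4 in PS and 32.5 and 26.7 in RS. The region of 2210408F21Rik (chr6:31214117-31219418) had 38.7 and 38.4 in PS and 31.7 and 24.96 in RS, with its summit 179 bp from a start of the lincRNA Lncpint. At Cd97 the region was only 359 bp wide (chr8:83756684-83757042), with 24.7 and 27.4 in PS and 34.6 and 38.9 in RS. Of the window at its PS summit, 83.3% was masked as repeat.

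Among lost regions with no RS interval, the region 13388 bp upstream of Tmem117 (chr15:94614804-94617571) was the strongest, with a fold enrichment of 46.1 and 51.0 in PS. The region upstream of Habp2 (chr19:56265363-56268743) had 38.7 and 48.2, and the region of Kcng4, a potassium channel subunit gene, and Wfdc1 (chr8:119645228-119647967) had 32.9 and 40.0. The remaining 5 of the 8 strongest were named after Olfr60, Frmpd1, 4930428G15Rik and Stt3b, Gm806, and Arpc1a, with values from 20.2 to 27.6 over both PS samples. All 8 lay above the upper quartile of kept PS regions in both samples, which was 9.88 and 10.4. The windows of 4 of the 8, at Kcng4, Olfr60, 4930428G15Rik and Arpc1a, were masked as repeat over 65.7% to 100% of their length, and their mapping was not tested.

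The strongest gained regions with no PS interval were weaker. The region 9466 bp upstream of Bcl6, which encodes a transcriptional repressor (chr16:23997789-23999778), had 12.6 and 11.6 in RS. The region of Arhgef7 and Gm6524 (chr8:11712824-11714125) had 9.76 and 10.4, and that of Igsf11, an adhesion protein of the immunoglobulin family (chr16:38890768-38893296), had 11.8 and 8.13. The summit of the Igsf11 region lay 37 bp from a GENCODE start of Igsf11 itself. The next 5 were named after BC026585, Oraov1, the group of Bola1, Hist2h2ab and Hist2h2be, Fgfbp1, and Myo3a, with values from 6.92 to 11.6 over both RS samples.

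A second comparison asks whether the kept loci changed in strength. Over all 15473 autosomal loci with an interval in all 4 samples, 29.1% were stronger in RS and 35.0% were weaker by limma (adjusted p at 0.05 after centring each sample on its median), with a median log2 difference of -0.13. Of the 1059 loci that were upstream in both stages, 459 (43.3%) were stronger in RS, 272 (25.7%) were weaker and 328 passed in neither direction. Their median log2 difference was 0.29, with quartiles of -0.49 and 1.09. Promoters had 13.0% stronger and 44.4% weaker, exon loci 46.8% and 22.1%, intergenic loci 56.1% and 20.3%, and intron loci 58.2% and 17.8%. Upstream loci thus lay between promoters and intergenic loci in both shares. Of the 1059 upstream loci, 317 were stronger in RS past 2-fold and 143 weaker, and 33 were weaker past 4-fold, while the largest rise was 3.62-fold. Of all 15473 loci, 2934 were stronger past 2-fold, 1741 weaker, and 195 weaker past 4-fold. The same counts among 2225 intergenic loci were 903, 242 and 65.

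**Figure D3:**
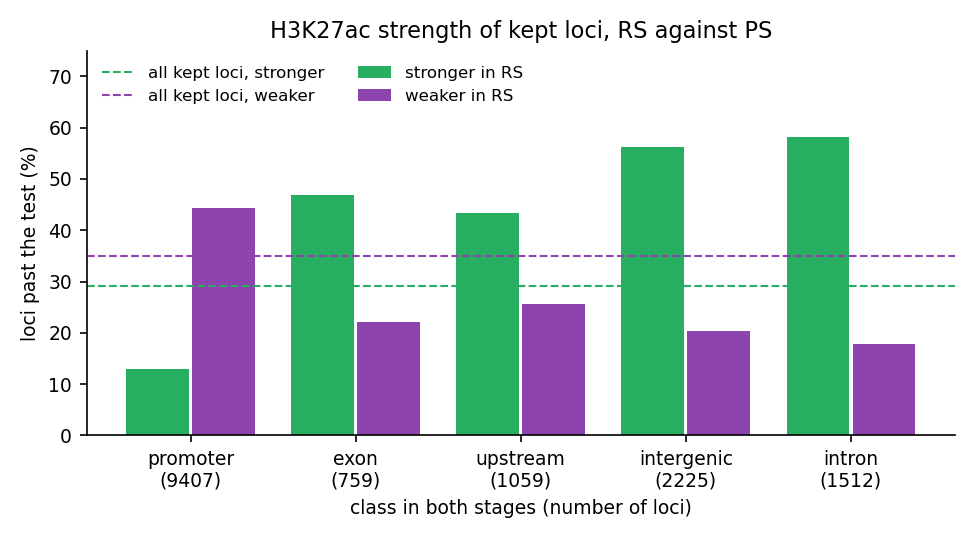
Percent of kept loci past the limma test in RS against PS (vertical axis), by region class in both stages (horizontal axis, with the number of loci); green bars are stronger in RS, purple bars weaker, and dashed lines give all kept loci at 29.1% and 35.0%. Upstream loci have 43.3% stronger and 25.7% weaker, between promoters and intergenic loci.

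The direction differed along the range of PS strength, as a description of the same values. The 156 upstream loci with a mean PS fold enrichment under 5 had medians of 4.53 and 4.38 in PS and 8.95 and 6.97 in RS. The 402 loci from 5 to 8 had 6.17 and 6.30 in PS and 11.4 and 8.71 in RS. The 209 loci from 8 to 12 had 9.47 and 9.87 in PS and 10.99 and 8.13 in RS, and the 292 loci at 12 or more had 17.7 and 20.3 in PS and 11.4 and 9.29 in RS. The RS medians therefore stayed within 8.95 to 11.4 in RS replicate 1 and 6.97 to 9.29 in RS replicate 2, whatever the PS strength. The bins were set by the PS values themselves, which by construction draws the outer bins toward the middle in the other stage.

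The largest rises were at loci with low fold enrichment in PS, from 4.53 to 6.58. The medians of kept upstream loci were 7.41 and 7.67 in PS, and the lowest upstream interval called in either PS sample had 3.29. At 1700011B04Rik (chr13:35166522-35169035) fold enrichment was 4.53 and 5.48 in PS and 16.7 and 16.8 in RS. The RS values were 3.62-fold higher after centring (log2 difference 1.86 ± 0.21 SE, n = 2 samples per stage, limma adjusted p = 2.3e-08). At Ctdsp2, a phosphatase gene of the small C-terminal domain phosphatase family, the values were 4.94 and 4.93 in PS and 17.9 and 13.4 in RS (log2 1.75). At Sntg1, which encodes a syntrophin, they were 6.58 and 4.93 in PS and 19.1 and 16.3 in RS (log2 1.73), and at AW549542 they were 5.35 and 6.03 against 19.9 and 14.5 (log2 1.69). Each of these 4 loci had both RS samples above both PS samples.

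The largest falls were larger. At Phactr3 (chr2:178107206-178110914), which encodes a phosphatase and actin regulator, fold enrichment was 51.0 and 60.8 in PS and 6.10 and 4.06 in RS. This was 10.4-fold lower in RS (log2 difference -3.38 ± 0.16 SE, n = 2 samples per stage, limma adjusted p = 4.7e-15). At Med27, a subunit gene of the Mediator complex, the values were 40.7 and 50.4 in PS against 4.48 and 4.64 in RS (9.24-fold lower). At Spon2 they were 35.0 and 36.7 against 4.07 and 4.06 (log2 -3.03), and at Wasf3, an actin regulator gene, 31.7 and 48.2 against 4.48 and 4.64 (log2 -2.99). The lowest upstream intervals called in RS had 2.85 and 3.48, so the RS values of these 4 loci, from 4.06 to 6.10, lay near the calling limit. Of the 8 strongest kept loci, 5 were weaker in RS and 2 were stronger. On the log2 scale the differences were negative at H1fx (-0.62 ± 0.12 SE, limma adjusted p = 5.3e-05), Aym1 (-1.91 ± 0.13, 1.1e-12), Kmt2b and Zbtb32 (-1.41 ± 0.15, 4.1e-09) and 2210408F21Rik (-0.35, 0.018). Gimap4 and Gimap9 fell by 0.30 (limma adjusted p = 0.042), while the let-7 region rose by 0.48 ± 0.14 (limma adjusted p = 0.0030) and the Cd97 region by 0.60 ± 0.15 (limma adjusted p = 0.00069).

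Some upstream regions changed class between stages. Of the 1645 kept PS upstream regions, 1286 (78.2%) overlapped an RS region of class upstream and 317 (19.3%, 17.4 to 21.2) an RS region of class promoter. Of the 1176 shared RS upstream regions, 1103 (93.8%) overlapped an upstream region of PS and 56 (4.76%) a promoter region. By the strongest region of each stage, 1059 of the 1421 kept loci were upstream in both, 52 went from upstream in PS to promoter in RS, 14 went the other way, 247 were promoter in both with a weaker upstream region beside, and 49 had other pairs of classes. The 52 loci that went from upstream to promoter were stronger in RS in 57.7% of cases and weaker in 19.2%.

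The class was set by the deposited annotation, so summits were also set against all transcript starts in GENCODE. Of PS upstream regions, 632 (23.4%) had a start within 1 kb of the summit, at a protein-coding gene for 296 and another gene type for 336. In RS 541 (20.4%) had a start as near. Among PS regions at a fold enrichment of 12 or more, 40.6% had one. Such a start was near for 27.5% of kept and 16.9% of lost PS regions, and for 31.5% of shared and 11.6% of gained RS regions. Sharing was 71.7% for PS regions near a start and 57.5% for those farther away, and 68.4% and 38.2% in RS. In the strength test, the 345 upstream loci near a start had 37.4% stronger and 32.2% weaker (median log2 0.03), and the 714 farther away had 46.2% stronger and 22.5% weaker (median log2 0.43). A part of the upstream regions is thus placed at a transcript start of another annotation, and the more distant loci had the larger median difference.

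The windows of gained regions differed in base composition from the rest. A window was counted as rich in CpG, the dinucleotide that clusters at many promoters, where it held at least 10. Gained upstream windows were rich in 52 of 1477 cases (3.52%, 2.69 to 4.59), against 25.9% (23.5 to 28.5) of shared RS windows, 20.1% (18.3 to 22.1) of kept PS windows and 20.3% (17.97 to 22.8) of lost PS windows. Over all PS regions the share was 43.2%, and over all RS regions 36.5%. Gained promoter windows were rich in 21.3% of cases and gained intergenic windows in 3.36%, so a low share was also found in gained regions of other classes. The median GC content was 47.7% in gained and 51.7% in shared RS windows. At least 50% of the window was masked as repeat for 21.1% of gained and 11.6% of shared RS windows, and for 12.8% of kept and 12.5% of lost PS windows. Kept and lost PS windows had overlapping intervals for CpG.

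The MYB letters were more frequent in lost windows. They were found in 214 lost windows (20.2%, 17.9 to 22.7) against 13.6% (12.04 to 15.4) of kept PS windows, 13.7% of shared RS windows and 9.95% (8.53 to 11.6) of gained windows. Over all PS regions the share was 15.4%, and over all RS regions 11.4%. The share among lost windows rose with strength, from 17.2% under a fold enrichment of 5 to 19.7% from 5 to 12 and 34.7% (26.1 to 44.3, 35 of 101) at 12 or more. Kept windows had 10.8%, 14.0% and 16.7% (13.0 to 21.1, 55 of 330) in the same bins. Intergenic windows at 12 or more had 38.8% when lost and 18.5% when kept, and promoter windows 21.8% (19 of 87) and 15.0%. Over promoter windows of every strength the letters were in 13.2% of lost and 13.3% of kept windows. Among the 1059 kept loci, the letters were in 22.1% (17.5 to 27.4) of PS windows at loci weaker in RS, 14.3% of those with neither call and 11.1% (8.55 to 14.3) of those stronger. In the RS windows of the same loci the shares were 18.4%, 13.4% and 11.1%. CpG-rich PS windows made up 36.8%, 43.6% and 9.37% of these groups in the same order. The composition thus differed between the groups as well, though it was highest in the group with neither call. Its part in the MYB share was not tested. In windows under 50% masked the MYB share was 19.8% for lost, 13.5% for kept and 10.4% for gained regions.

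**Figure D4:**
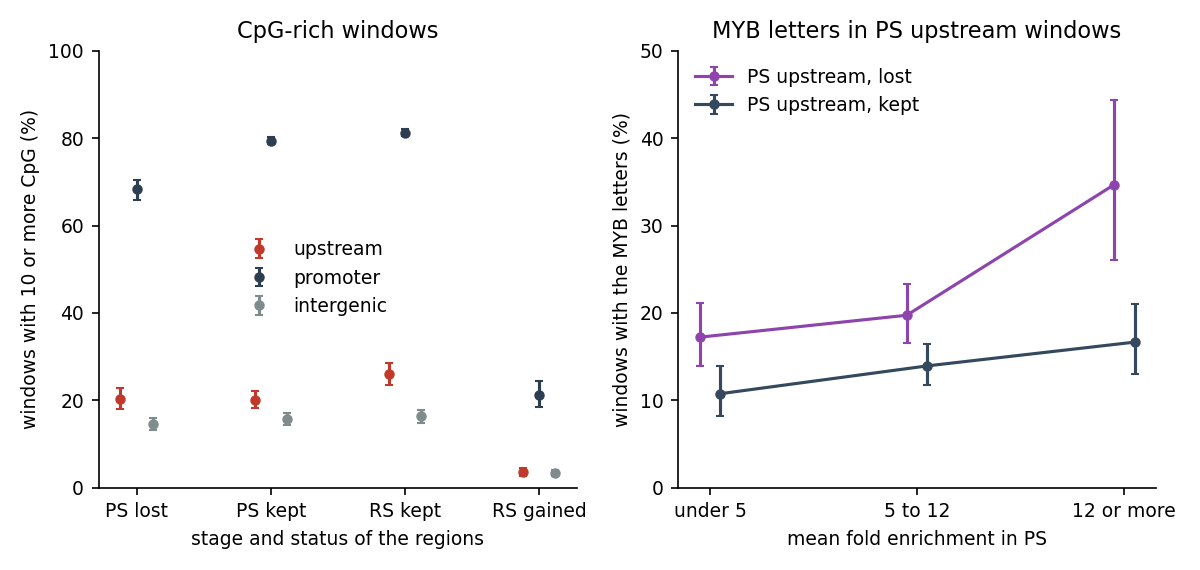
Left, percent of 300-base windows with 10 or more CpG (vertical axis) by stage and status of the region (horizontal axis) for upstream, promoter and intergenic regions; right, percent of PS upstream windows with the MYB letters by mean fold enrichment, for lost and kept regions, with 95% Wilson intervals as bars. Gained upstream windows are rich in CpG in 3.52% of cases against 20.1% to 25.9% in the other groups, and the MYB letters reach 34.7% of lost windows at 12 or more.

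Of the other strings, the GC box varied most between the groups. It was in 14.3% of kept, 12.6% of lost, 18.8% of shared RS and 4.604% of gained windows, against 26.6% of all PS and 23.4% of all RS regions. The AP-1 letters were in 7.29%, 8.02%, 7.14% and 9.48% of the same groups (6.55% and 6.999% of all regions). The RFX letters were in 2.19% (1.58 to 3.01) of kept and 0.849% (0.447 to 1.61) of lost windows, 1.87% of shared RS and 1.42% of gained windows (1.25% and 1.42% of all). The cAMP response element was in 0.669%, 0.472%, 0.680% and 0.271% of the groups (0.695% and 0.581% of all), and the E-box in 6.02%, 4.72%, 6.80% and 4.27% (5.81% and 5.40% of all). The NRF1 letters were in 0.365%, 0.943%, 0.510% and 0.0677% (0.608% and 0.453% of all). The absence of a match says only that these letters are not in the window.

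The third comparison sets the genes named by the upstream regions beside their RNA in the dKO cells. A gene was counted as changed between RS and PS at an adjusted p of 0.05 and 1.5-fold in edgeR's quasi-likelihood test. Of 14647 genes tested, 30.4% were higher in RS and 27.6% were lower, with a median log2 difference of 0.01. Upstream regions named 3548 genes, of which 3531 were in the RNA files (15.1% of all genes there) and 2837 had enough reads for the test. A region often named more than 1 gene, with 76.6% of PS and 76.9% of RS upstream regions naming a single gene, and several regions can name the same gene. The kept regions named 1646 genes, the lost regions 1097 and the gained regions 1514, with 424 genes named by both gained and kept, 212 by lost and kept, and 123 by gained and lost regions.

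Genes named by gained regions were higher in RS in 440 of 1246 tested cases (35.3%) and lower in 324 (26.0%), with a median log2 difference of 0.10. Genes named by lost regions were higher in 211 of 825 (25.6%) and lower in 246 (29.8%), with a median of -0.05. Genes named by kept regions were higher in 451 of 1382 (32.6%) and lower in 370 (26.8%), with a median of 0.06. The shares of all 3 groups were near those of all genes tested. Genes named by gained regions only had 35.0% higher and 26.7% lower, and genes named by lost regions only had 24.0% higher and 30.8% lower. The 268 tested genes with 2 or more gained regions had 39.6% higher and 24.3% lower (median 0.35), and the 978 with a single gained region 34.2% and 26.5% (median 0.03). The 131 tested genes with 2 or more lost regions had 29.0% higher and 32.8% lower. Kept loci that were stronger in RS named 435 tested genes with 38.9% higher and 22.8% lower (median 0.30), and kept loci that were weaker named 252 with 25.4% higher and 33.3% lower (median -0.16). The median RPKM of genes named by gained regions was 5.09 and 5.13 in PS and 5.5996 and 5.99 in RS, by kept regions 5.47 and 5.73 against 5.59 and 5.98, and by lost regions 2.74 and 2.41 against 2.67 and 2.76. All genes in the files had medians of 0.823 and 0.743 against 1.1003 and 1.13.

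**Figure D5:**
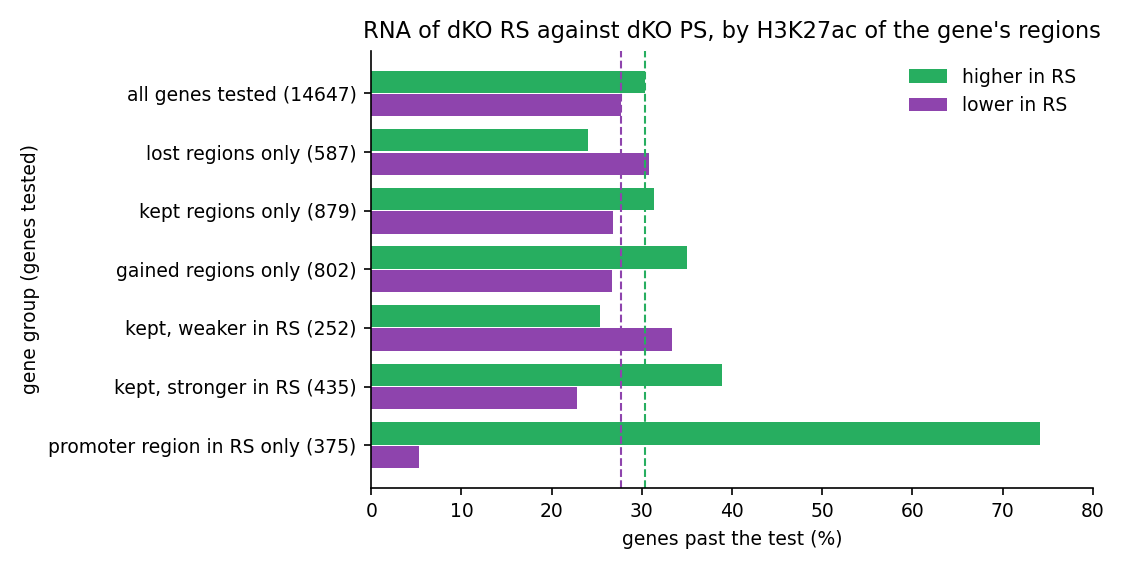
Percent of tested genes higher (green) or lower (purple) in dKO RS than in dKO PS (horizontal axis), by the H3K27ac status of the upstream regions that name them (vertical axis, with genes tested); dashed lines give all genes tested. Genes with gained regions only have 35.0% higher and genes with lost regions only 24.0%, against 30.4% of all genes, while 74.1% of genes with a promoter region in RS only are higher.

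The H3K27ac at the promoter of the same gene moved with larger differences in these shares. Of the genes with gained upstream regions, 974 tested genes had promoter regions in both stages, and 31.6% of them were higher in RS and 28.2% lower (median -0.07). Of all 10243 tested genes with promoter regions in both stages, 23.6% were higher and 33.0% lower (median -0.21). The 48 genes with a gained upstream region and a promoter region in RS only were higher in 75% of cases and lower in 6.25% (median 2.79), and all 375 genes with a promoter region in RS only in 74.1% and 5.33%. Genes with a gained region and no promoter region numbered 156, with 48.1% higher and 17.3% lower, against 49.6% and 14.4% of all 3039 genes with none. Genes with lost regions had 21.9% higher and 32.0% lower with promoter regions in both stages (571 genes), and 33.8% higher and 26.6% lower with none (154 genes). Genes with kept regions had 29.6% higher and 28.9% lower with promoter regions in both stages (1039 genes), and 39.9% and 21.1% with none (213 genes). With a promoter region in RS only, 63.2% of 57 tested genes with kept regions and 53.8% of 26 with lost regions were higher. These shares, and those of genes with lost regions and no promoter region, lay more than 10 percentage points from those of all genes. In the rest of these promoter groups the shares of genes with upstream regions lay within 10 percentage points of those of all genes.

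Among genes named by gained regions with no PS interval, the largest rises were at genes with few reads. 4930565D16Rik had 0 and 0 reads in PS and 23 and 11 in RS, at least 9.87-fold higher if PS is set at 3 reads over the group. 5033406O09Rik had 0 and 0 against 18 and 15, and 4930430F21Rik 0 and 0 against 21 and 12, each at least 9.58-fold higher on the same floor. Rarres2, which encodes the chemoattractant chemerin, had 0 and 1 reads in PS and 53 and 20 in RS, a ratio of 63.6 with a counting interval from 11.1 to 2546. The largest falls included 3 genes with 649 or more reads in each PS sample. Mllt10, which encodes a partner of the H3K79 methyltransferase DOT1L, had an RPKM of 179 and 176 in PS and 11.4 and 15.9 in RS (log2 difference -3.66 ± 0.17 SE, n = 2 per stage, edgeR adjusted p = 3.3e-06). Its gained region was 491 bp wide, lay 1816 bp upstream and was also named after A930004D18Rik. Gm4763 had 67.8 and 66.2 in PS and 2.998 and 4.04 in RS (log2 -4.22 ± 0.21), and 1700006A11Rik 97.2 and 78.0 against 5.59 and 5.99 (log2 -3.88). Gm4371 had 24 and 16 reads in PS and 1 and 1 in RS, a PS to RS ratio of 23.0 with a counting interval from 5.95 to 196. Gained regions thus stood upstream of genes with RNA differences in both directions.

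Among genes named by lost regions with no RS interval, the largest rises were again at genes with few reads. Ms4a7, a gene known from macrophages, had 1 and 0 reads in PS and 30 and 27 in RS (ratio 49.7, counting interval 8.56 to 1995). P2ry6, a receptor gene for the nucleotide UDP that macrophages also use, had 0 and 2 reads against 26 and 23 (ratio 21.3, 5.602 to 181). The 4 macrophage markers were higher in the same RS samples, as given above, and their part in these values was not tested. Atp13a4 had 1 and 0 reads against 14 and 19 (ratio 28.8, 4.81 to 1170), and 4930527F14Rik 2 and 0 against 24 and 24 (ratio 20.9, 5.48 to 178). The largest falls were Gm21269, with an RPKM of 88.3 and 99.3 in PS and 1.67 and 2.68 in RS (log2 -5.41 ± 0.25), Gm6567, with 69.7 and 73.5 against 3.35 and 4.38 (log2 -4.18 ± 0.18), and Gm21221, with 3.52 and 3.02 against 0.266 and 0.158 (log2 -3.82). Chst1, which encodes a carbohydrate sulfotransferase, had 72.7 and 65.99 in PS and 3.28 and 4.75 in RS, 16.9-fold lower (log2 -4.08 ± 0.19 SE, n = 2 per stage, edgeR adjusted p = 3.3e-06). Both RS samples were far below both PS samples at each of the last 4 genes. The Leydig cell markers also fell in RS, and their part in these values was not tested. Only uniquely aligned reads were counted, so a predicted gene with a near-identical copy would lose reads, which makes the values of the genes named Gm uncertain.

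Chst1 was also among the genes with the most lost regions. It had 8 lost regions and no kept or gained region, and 4 of the 8 had no RS interval, at fold enrichments of 3.29 to 6.03 in PS. Genes were picked for their number of regions after their values were seen. Fcgr3, an Fc receptor gene, also had 8 lost regions, with an RPKM of 77.3 and 88.2 in PS and 35.3 and 34.6 in RS (log2 -1.20). Gm6567 had 8 lost, 3 kept and 1 gained region. Of the 5 genes with 6 lost regions, C2cd4b was lower in RS, with 11.02 and 14.8 in PS and 0.967 and 1.91 in RS (log2 -3.14), Rfx3 was higher, and the other 3 did not pass the RNA test, Bcl9l and Gnal among them. The largest number of gained regions was 5, at Tnks, which encodes tankyrase, with an RPKM of 36.9 and 32.1 in PS and 48.6 and 42.2 in RS and no call. Of the 8 genes with 4 gained regions, 3 were higher in RS, among them 5033406O09Rik and Gm5458, and 1 was lower, 9330102E08Rik (125 and 97.9 against 10.4 and 12.005, log2 -3.27). Another 2 had no call, among them Frg1 with 42.3 and 38.2 against 34.8 and 31.5, and 2 had too few reads for the test. A high number of gained regions thus occurred at genes that rose, fell and did neither.

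The RNA of the genes named by the strongest regions moved in both directions too. Of the kept group, H1fx had an RPKM of 50.4 and 65.6 in PS and 39.1 and 34.9 in RS (log2 -0.61 ± 0.18, edgeR adjusted p = 0.016, a call lost with 3 of 4 samples left out in turn), Zbtb32 38.8 and 65.2 against 18.6 and 18.99 (log2 -1.44 ± 0.24, 0.00096), and Kmt2b 12.005 and 17.3 against 5.44 and 7.42 (log2 -1.16). Aym1 had 26 and 17 reads in PS and 2 and 4 in RS (log2 -2.93). These 4 genes fell in RNA, and their loci fell in H3K27ac. Pxn and Sirt4 rose in RNA, from 28.1 and 33.8 to 47.9 and 51.5 and from 6.16 and 9.28 to 17.4 and 15.4, at a locus with no call in H3K27ac. Of the lost group, Kcng4 fell from 11.9 and 12.7 to 6.54 and 5.93 (log2 -0.94), Gm806 rose from 0.758 and 0.777 to 1.54 and 2.20 (log2 1.31), and Tmem117, Frmpd1, Stt3b and Arpc1a had no call. Habp2, Olfr60 and 4930428G15Rik had no reads in any RNA sample. Of the gained group, Igsf11 rose from 12.1 and 12.6 to 27.3 and 26.1 (log2 1.15 ± 0.14, edgeR adjusted p = 0.00013). Bcl6 had 12 and 7 reads in PS and 33 and 28 in RS (log2 1.52, edgeR adjusted p = 0.012), a call lost when either RS sample was left out. Arhgef7 fell from 22.8 and 22.8 to 11.99 and 14.0 (log2 -0.78), and Hist2h2be, a histone H2B gene with close copies in the genome, fell from 29.9 and 30.3 to 2.73 and 3.83 (log2 -3.17 ± 0.19). Of the loci with the largest rises in strength, Ctdsp2 RNA rose from 3.37 and 2.46 to 7.65 and 7.38 (log2 1.41), 1700011B04Rik RNA from 4.06 and 3.20 to 9.38 and 8.91 (log2 1.37) and Sntg1 from 4 and 1 reads to 17 and 20, while AW549542 had too few reads. Of those with the largest falls, Phactr3 (2.79 and 2.91 against 2.33 and 1.73), Med27 (16.0 and 18.3 against 14.0 and 11.1) and Wasf3 (2.12 and 2.01 against 1.09 and 1.52) did not pass the RNA test, and Spon2 had too few reads.

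Lists of genes with known roles held upstream regions at differing rates, beside 15.1% of all genes in the RNA files. Nearly all list genes had enough reads for the test, while many other genes did not. Among the 14647 tested genes a larger share, 2837, had an upstream region. Of 57 genes for spermatid proteins, 21 (36.8%) had an upstream region, with kept regions at 12, lost at 3 and gained at 11. All 21 were tested, 18 were higher in RS and the other 3 did not pass the test. Of the 36 tested spermatid genes without an upstream region, 25 were higher and 1 lower. Gapdhs, the sperm form of the glycolytic enzyme, had a kept region (RS chr7:30743461-30746132) with a fold enrichment of 19.8 and 22.5 in PS and 39.5 and 38.9 in RS. Its RPKM was 56.4 and 90.6 in PS and 1029 and 1044 in RS (log2 3.85 ± 0.23). Odf1, an outer dense fiber protein gene of the tail, had a kept region with 26.8 and 25.2 in PS and 11.4 and 9.87 in RS, while its RNA rose from 59.4 and 81.1 to 884 and 915 (log2 3.72). Spata19, a gene of sperm mitochondria, had a gained region with 10.99 and 10.4 in RS, and its RNA rose from 55.0 and 57.6 to 597 and 463 (log2 3.28). Odf4 had a gained region with 9.36 and 6.39, and an RPKM of 133 and 179 in PS and 168 and 166 in RS with no call. In both RS samples the mark was higher than in either PS sample at the Gapdhs region and lower at the Odf1 region, and the RNA of both genes rose.

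Of 37 transcription factor genes of late spermatogenesis in the RNA files, 14 (37.8%) had an upstream region. Of the 13 tested, 3 were higher in RS and the others did not pass the test. Over all 36 tested genes of this list, 12 were higher and 3 lower. Rfx3, which encodes a regulator of ciliary genes, had 6 upstream regions in PS and all 6 were counted as lost. They lay close together, within chr19:28023407-28028986. The strongest, at chr19:28026701-28028275, reached 37.9 and 51.0 in fold enrichment. An RS interval overlapped it, but no region held by both RS replicates did, so it was not without signal in RS. Rfx3 RNA was higher in RS, with an RPKM of 1.40 and 1.21 in PS and 5.98 and 5.61 in RS (log2 2.20 ± 0.17). Zfp541 had a kept region with 37.0 and 44.9 in PS and 15.1 and 11.6 in RS, and an RPKM of 74.9 and 100 in PS and 86.6 and 98.5 in RS with no call. Rfx4 (27.7 and 30.6 against 21.5 and 17.6) and Sp3 (7.46 and 5.54 against 8.93 and 9.21) had kept and gained regions and did not pass the RNA test.

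Of 64 chromatin regulator genes, 20 (31.3%) had an upstream region, with kept regions at 12, lost at 4 and gained at 6. Of the 20, 5 were higher and 9 lower in RS, beside 19 higher and 21 lower of all 62 tested on this list. Kdm5b, an H3K4 demethylase gene, had a kept region (PS chr1:134554894-134559112) with 25.9 and 29.0 in PS, and its RNA fell from 115 and 99.6 to 42.1 and 42.9 (log2 -1.29). The Polycomb genes Cbx7 and Cbx2 moved in opposite directions, with Cbx7 RNA at 21.5 and 32.5 in PS and 10.9 and 11.7 in RS (log2 -1.22) and Cbx2 RNA at 2.06 and 1.47 against 3.23 and 2.497 (log2 0.74, edgeR adjusted p = 0.032). The Cbx2 call was lost with DESeq2 and when PS replicate 2 (log2 0.57) or RS replicate 1 (log2 0.63) was left out. Cbx2 had a kept region with 22.6 and 31.8 in PS and 15.5 and 11.6 in RS. Of 40 meiotic chromosome genes in the files, 8 (20%) had an upstream region, with 2 higher and 5 lower in RS. Over all 40, which were all tested, 9 were higher and 14 lower. Tex15 rose from 3.97 and 4.22 to 18.4 and 25.7 (log2 2.47) and Rad21l, a meiotic cohesin gene, from 1.22 and 1.52 to 3.40 and 3.43 (log2 1.36), while Ccdc36 fell from 16.8 and 16.0 to 4.02 and 4.24 (log2 -1.95).

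Of 27 marker genes of other testis cells, 5 (18.5%) had an upstream region. The region named after Nanos3 and a cluster of microRNA genes with Mir23a and Mir27a was enriched 18.5-fold and 23.6-fold in PS and 25.6-fold and 19.2-fold in RS. Kit, a receptor gene of spermatogonia, had a kept region with 13.2 and 12.1 in PS and 4.88 and 6.39 in RS, and an RPKM of 4.83 and 2.70 against 4.12 and 3.35. Acta2, the smooth muscle actin gene, shared with Fas a region with 14.2 and 9.87 in RS, and had an RPKM of 1.71 and 1.16 against 1.58 and 1.49. Star, the Leydig cell gene for cholesterol transport, had 2 lost regions with 3.84 to 8.22 in PS, and its RNA fell from 14.7 and 10.4 to 1.53 and 1.38 (log2 -3.06). All 5 Leydig markers fell in the same RNA samples, and the part of such cells in either measurement was not tested.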

How the data were processed

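H3K27ac was measured by ChIPmentation, a tagmentation form of ChIP-seq, in 4 samples, and RNA by RNA-seq in 4 samples. Per the submitters' processing notes, reads were aligned to mm10, with Bowtie 1.1.1, MACS2 2.1.0.20140616 and STAR 2.4.2a named. For each H3K27ac sample the authors deposited intervals called on that sample alone, with the pileup signal, the fold enrichment, the −log10 p and −log10 q, and a class with the named genes, so no read depth was known and differences below the calling limit were not detectable. For RNA the authors deposited estimated counts of reads per isoform and RPKM per isoform; the counts, already whole numbers from uniquely aligned reads split between isoforms, and the RPKM were summed to 23343 genes here. Whether counting used strand is not given in the sources used here, so reads of overlapping genes cannot be told apart.

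Merged regions, shares with 95% Wilson intervals, and windows of 300 bases were computed with Python 3.11.15, pandas 2.3.3 and pysam 0.24.0, with sequence from GRCm38 and transcript starts from its GENCODE annotation. Strength was tested with limma 3.58.1 on log2 fold enrichment of loci with an interval in all 4 samples, and RNA with edgeR 4.0.16 (TMM, at least 10 counts in at least 2 samples), both in R 4.3.3 with Benjamini-Hochberg adjustment over all features. DESeq2 1.42.0 was an alternative for RNA. Both models were tested on simulated data. Named regions were the 8 with the highest mean fold enrichment among kept regions and among lost and gained regions with no interval in the other stage, the 4 kept loci with the largest change in each direction, the 4 genes with the largest RNA change in each direction for lost and gained regions, up to 4 members of each gene list, and the targeted genes. A member of the meiotic list is not reported here. The members and lists were chosen with earlier results of these data known. Alternatives covered the overlap, the replicate rule, a stricter −log10 q, equal interval numbers, centring, normalization, filters, and leaving out each sample.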

Additional observations from a re-analysis of the deposited data

How the results depend on the processing

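The share of PS upstream regions kept in RS was 60.8%, and it was 21.6% when a reciprocal overlap of 50% was required, 65.0% over the union of the replicates and 52.5% at a −log10 q of at least 5. Lost regions numbered 2120 with the reciprocal overlap, 2224 over the union and 697 at the stricter −log10 q, against 1060. Gained regions numbered 6398 over the union and 631 at the stricter −log10 q, against 1477. Leaving out 1 H3K27ac sample, so that its stage rested on a single sample, gave shares from 52.7% to 76.0%, lost counts from 649 to 2701 and gained counts from 1200 to 7080. Without RS replicate 1 there were 3379 gained regions, without RS replicate 2 there were 7080. Counts of kept loci stronger in RS ranged from 342 to 415 and weaker from 178 to 211 with 1 sample left out, where the lone sample was assumed to vary like the others. The 178 came without RS replicate 1. No centring lowered the median log2 difference of upstream loci from 0.29 to 0.18, and quantile normalization to 0.19, with 410 and 427 loci stronger and 259 and 286 weaker.

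For RNA, genes with lost regions and no RS interval had 135 higher and 150 lower, from fewer genes by construction. Regions that named a single gene, an alternative chosen after seeing the data, gave 299 higher and 198 lower for kept, 139 and 152 for lost, and 294 and 182 for gained regions, again from fewer genes. With 1 RNA sample left out, kept regions had 371 to 478 genes higher and 277 to 380 lower, lost regions 163 to 233 and 180 to 237, and gained regions 366 to 456 and 240 to 324. DESeq2 gave 415 and 345 for kept, 185 and 218 for lost, and 406 and 298 for gained regions. Among 467 fits of single named genes under alternatives, 432 kept their direction and side of the threshold, 16 lost the call and 7 gained it. Calls were lost without RS replicate 1 at Gm5458 (0.94), Cbx2 (0.63), H1fx (-0.61), Bcl6 (1.61), Arhgef7 (-0.58) and Rnf8 (-0.96), without RS replicate 2 at H1fx (-0.43), Gm806 (1.15), Bcl6 (1.62) and Rnf8 (-0.90), without PS replicate 2 at Cbx2 (0.57) and H1fx (-0.35), without PS replicate 1 at Pxn (0.56), and with DESeq2 at Gm5458, Cbx2 and Bcl6. The sign turned in 12, all at genes with no call, where the log2 difference with 1 sample left out ran from -0.45 to 0.34 at Gnal, -0.27 to 0.48 at Kit, -0.059 to 0.41 at Acta2, -0.11 to 0.42 at Odf4, -0.12 to 0.40 at Zfp541, -0.61 to 0.068 at Cd97, -0.24 to 0.10 at Oraov1 and -0.77 to 0.77 at Scml2. All 72 fits of single named loci in the strength test kept theirs. These loci were picked as the largest changes of the same test, so this outcome was likely by construction. The replicate block and the pileup gave them the same log2 differences as the main fit. The cause of the shifts in the other values was not tested.

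The labels number the replicates but do not tie a number to a mouse. Deviations from the stage means correlated at 0.225 in RNA and 0.00331 in H3K27ac between samples of the same number, with 2 pairs only. With a replicate block, the share kept was 60.4%, taken as the mean over the pairs, with 2102 lost and 4900 gained regions, and 458 loci were stronger and 270 weaker. In RNA the block gave 455 and 373 genes for kept, 217 and 246 for lost, and 451 and 329 for gained regions.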

Other observations

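Upstream regions made up 9.88% of the loci of chromosome 17 and 13.4% of those of chromosome 7, the lowest and the highest share among the autosomes, and their kept share ran from 30.1% on chromosome 16 to 46.2% on chromosome 19. By distance of the summit from the gene start, 66.4% of PS upstream regions within 5 kb were kept, 56.8% of those from 5 to 10 kb, 60.3% of those from 10 to 15 kb and 59.6% of those beyond 15 kb. The PS bins beyond 5 kb had overlapping intervals (53.0 to 60.5, 56.4 to 64.0 and 55.9 to 63.1) and no order. In RS the share was lowest within 5 kb, at 34.1% (30.8 to 37.6), followed by 45.5%, 47.1%, and 51.8% (48.0 to 55.5) beyond 15 kb. The reason for the difference between the stages was not tested.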
